A study of Mus musculus with 8 samples.

Results

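Most complement and coagulation proteins of plasma are made in the liver, and the transcripts of 35 such genes were looked up on arrays of liver RNA from 8 mice, by gene symbol in the annotation of the probe sets. A probe set is a group of short oligonucleotides that measures 1 transcript. Of the 35 genes, 31 had a probe set with that symbol alone, among 12393 genes so represented on the array. They comprised 13 of 16 listed complement genes and 18 of 19 listed coagulation genes, on 41 probe sets in all. The probe table did not list C3, Cfd and Cpb2, which are not analysed here, and C4b was left out because its probe set was annotated to C4a as well.

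The 8 animals were 8 months old, null for the low density lipoprotein receptor in a C57B6 background, and fed Western diet over the last 12 weeks. Adeno-associated virus (AAV2.8) given at an age of 10 weeks carried either GFP, the control, or human LXRα, a nuclear receptor activated by oxysterols, driven by the human thyroxine binding globulin promoter, which is active in liver. For 3 days before sampling the mice received intraperitoneal vehicle or T0901317, a synthetic LXR agonist, at 5 mg/kg. Each of the 4 groups had 2 arrays, and they are called GFP-vehicle, LXRα-vehicle, GFP-T0901317 and LXRα-T0901317 here. The series addresses hepatic LXRα in diet-dependent lipid metabolism. The labels name 1 mouse of 8 months per array and do not state litter or cage, so p-values measure only the spread between these samples, and 2 arrays per group limit the precision. In RNA of whole liver, fewer cells of a type and less RNA per cell cannot be told apart.

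Complement is a cascade of plasma proteases and binding proteins. Lectins or antibodies start it, convertases built from C2, C3, C4 and factor B amplify it, and C5 to C9 assemble into a pore in the target membrane. Coagulation runs through contact factors and the vitamin K-dependent proteases to thrombin, which turns fibrinogen into fibrin, and plasmin dissolves the clot. Hepatocytes transcribe nearly all of these genes under liver-enriched factors such as HNF1, HNF4 and C/EBP, and interleukin-6 raises several of them, fibrinogen included, in the acute phase response.

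Values are the intensities deposited for each probe set. Differences are on the log2 scale, where 1 is a doubling of intensity, with the standard error (SE) of limma's moderated linear model, which was fitted to all arrays and probe sets. Adjusted p-values follow Benjamini-Hochberg across the 15838 probe sets tested, and a gene was called at an adjusted p under 0.05. Each gene is given by its brightest probe set unless another is named. All 31 genes passed the filter on low intensity, with 40 of their 41 probe sets.

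As a check of the tissue, 11 hepatocyte markers were measured, and their summed intensity lay between 106540 and 133550 on every array, with albumin alone at 19677 to 31022. The 13 macrophage markers tested summed to 14184 and 15500 with GFP-vehicle, 9442 and 16329 with GFP-T0901317, 10240 and 4010 with LXRα-vehicle, and 11448 and 10463 with LXRα-T0901317. Replicate arrays correlated at r from 0.968 to 0.986 within groups across probe sets. The ratio of 3′ to 5′ β-actin probe signal, a measure of RNA integrity and labelling, lay between 2.08 and 3.08 on all 4 vehicle arrays. With GFP-T0901317 it reached 7.56 and 11.04, and it was 2.75 and 36.3 with LXRα-T0901317. It was thus raised on the treated arrays except the first of LXRα-T0901317. In the same order, the ratio was 2.92, 5.12, 1.27 and 19.7 for Gapdh. For dap, a bacterial control transcript, it was 4.60, 9.97, 2.86 and 21.8. On the vehicle arrays these 2 ratios lay between 1.06 and 1.16 and between 1.67 and 2.20. The part of the β-actin ratio in the treatment differences was not tested beyond the fits given beside them. The slope on the ratio in those fits came from differences between arrays of the same group. By far the largest was in the LXRα-T0901317 pair, at 2.75 and 36.3. Within GFP the ratio rose with T0901317. Adjusted GFP values carry over that slope and cannot tell ratio and treatment apart.

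**Figure D1:**
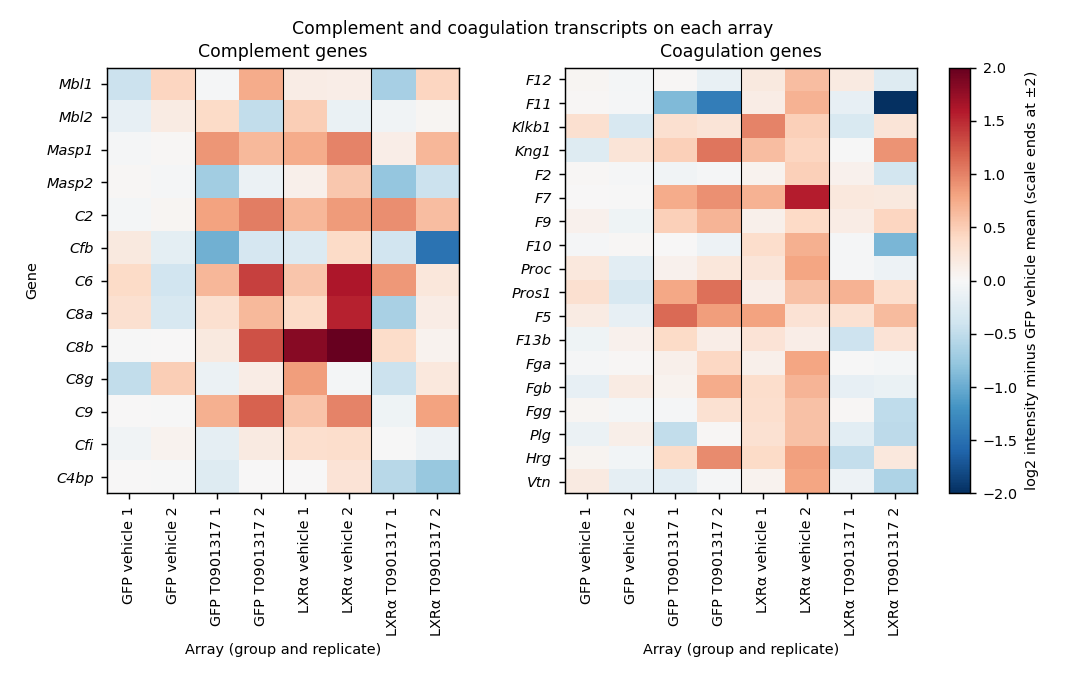
Heat maps of the 13 complement genes (left) and 18 coagulation genes (right), with genes as rows and the 8 arrays as columns; colour is the log2 intensity minus the mean of the GFP-vehicle arrays, and the scale ends at ±2. The LXRα-vehicle columns are mostly red, the second array more so than the first, and both LXRα-T0901317 columns are near white for most genes, with F11 and Cfb lowest on the second.

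With vehicle, all 31 genes had a higher mean with LXRα than with GFP by their brightest probe set. Among their other probe sets tested, only some of Masp1 were lower, by -0.61 and -0.15. The 13 complement genes had a median difference of 0.40 and the 18 coagulation genes one of 0.46, against 0.05 for all 9359 genes tested, of which 59.9% were higher. Leaving out each array in turn, 29 to 31 of the listed genes were higher. In 24 of the 31 genes both LXRα-vehicle arrays exceeded both GFP-vehicle arrays, where 30.5% of all genes did so, and in 0 they lay below, where 13.3% did. The 24 comprised 8 complement and 16 coagulation genes. By limma, 0 of the 31 were called, where 0.00631% of probe sets were, and 4 were higher at an unadjusted p under 0.05, where 2.48% of all genes were, and 0 were lower, where 3.13% were. The 4 were C8b, F7, Masp1 and C2, and adjusted p-values of the 31 ran from 0.58 to 0.996. The medians depended on single arrays: the complement median was 0.64 without the second GFP-vehicle array, and the coagulation median was 0.29 without the second LXRα-vehicle array and 0.61 without the first.

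T0901317 in the LXRα livers went with lower means in 28 of the 31 genes. The median difference of LXRα-T0901317 from LXRα-vehicle was -0.51 for complement, with 12 of 13 genes lower, and -0.63 for coagulation, with 16 of 18 lower. Over all genes the median was -0.03. In 19 of the 31 genes both T0901317 arrays lay below both vehicle arrays, where 26.8% of all genes did so, and in 0 above, where 21.9% did. Limma called 0 of the 31, where 0.0253% of probe sets were called, and 11 were lower at an unadjusted p under 0.05, where 4.7% of all genes were, and 0 higher, where 8.58% were. These 11 were the complement genes C8b, C8a, Masp2 and C4bp and the coagulation genes F7, F10, F11, Fgg, Fgb, Plg and Vtn. The LXRα-vehicle arrays enter both this comparison and the one before it, so their height enters both with opposite sign. Without the second LXRα-T0901317 array, which had the β-actin ratio of 36.3, the complement median was -0.72.

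T0901317 in the GFP livers split the genes. The complement median was 0.36, with 8 genes higher and 5 lower, and the coagulation median was 0.26, with 12 higher and 6 lower, against -0.02 over all genes. Both T0901317 arrays were above both vehicle arrays for 13 of the 31 genes, where 24.7% of all genes were, and below for 3, where 31.6% were. Limma called 0 of the 31 and 0% of all probe sets, and 7 genes were higher at an unadjusted p under 0.05, where 9.11% of all genes were, and 0 lower, where 3.16% were. Those 7 were C2, C9, Masp1, F5, Pros1, F7 and F9. The GFP-vehicle arrays are shared with the comparison of LXRα and GFP. The complement median was -0.067 without the first GFP-vehicle array, and -0.014 with the log2 β-actin ratio as a covariate.

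Between the treated groups, 29 of the 31 genes were lower with LXRα than with GFP, where 55.8% of all genes were higher. The complement median was -0.36 and the coagulation median -0.32. Arrays were separate in the lower direction for 10 genes, where 9.3% of all genes were, and for 0 in the higher direction, where 10.8% were. Limma called 0 of the 31 and 0% of probe sets, and only C4bp and Hrg were lower at an unadjusted p under 0.05, where 1.28% of all genes were, with 0 higher, where 0.791% were. Each of the 31 adjusted p-values was 1. With 1 array in a group such separation is easier to meet, so counts with an array left out cannot be set beside these shares.

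**Figure D2:**
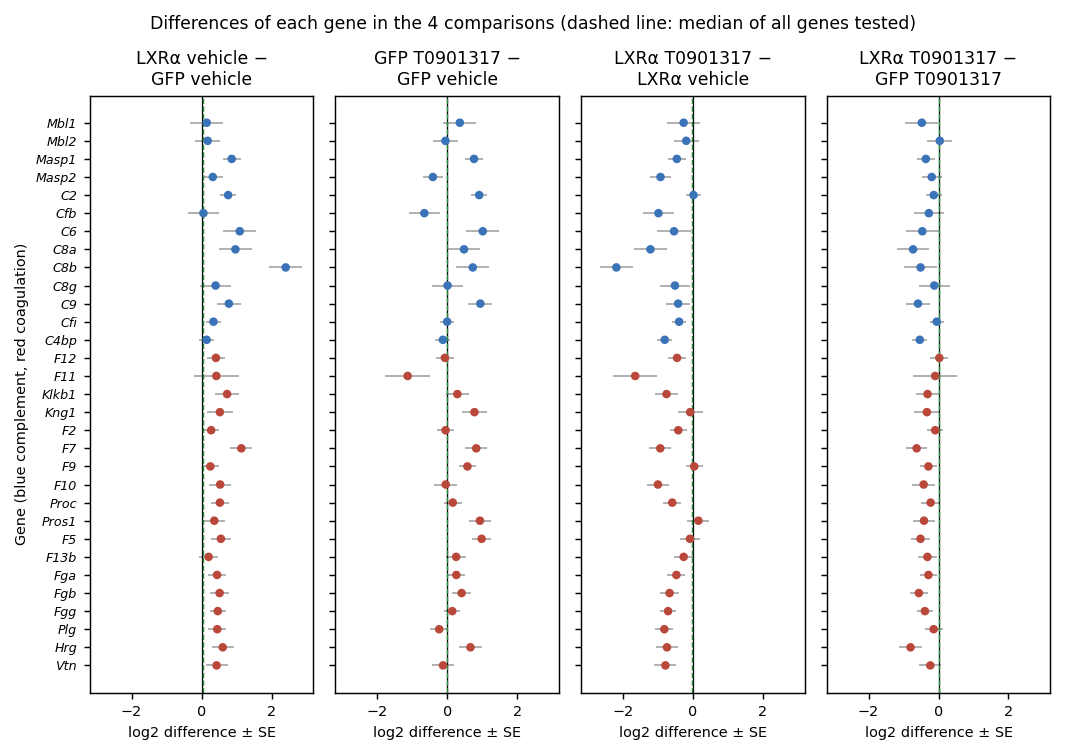
The log2 difference of each gene (points, with bars of ±1 SE from limma, 2 arrays per group) in the 4 comparisons, complement in blue and coagulation in red; the dashed line is the median of all 9359 genes tested. All 31 points lie right of 0 in the first panel, 28 lie left of 0 in the third and 29 in the fourth, while the second has 20 to the right and 11 to the left.

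The lectin pathway genes comprised the pattern recognition lectins Mbl1 and Mbl2 and their proteases Masp1 and Masp2. Mbl1, which encodes mannose-binding lectin A, differed by 0.15 between LXRα and GFP with vehicle, and Mbl2, mannose-binding lectin C, by 0.17. Leaving out single arrays turned both, to -0.28 without the first GFP-vehicle array and -0.14 without the first LXRα-vehicle array. Mbl1 read 366 and 664 on the GFP-vehicle arrays, on either side of the LXRα-vehicle arrays at 548 and 543. Mbl2 had the least interaction of all members, -0.14, which is the T0901317 difference with LXRα minus that with GFP.

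Masp1, a protease that binds the lectins and starts the cascade, was read by 5 probe sets that did not move alike. The brightest read 355 and 365 with GFP-vehicle, 664 and 564 with GFP-T0901317, 599 and 714 with LXRα-vehicle, and 396 and 572 with LXRα-T0901317. Its GFP-vehicle arrays were below all others, and both LXRα-T0901317 arrays were below both LXRα-vehicle arrays. LXRα-vehicle exceeded GFP-vehicle by 0.86 (SE 0.26, limma adjusted p = 0.842), and GFP-T0901317 exceeded GFP-vehicle by 0.77, or by 0.49 with the log2 β-actin ratio as a covariate. The next brightest read 279 and 185, 437 and 385, 153 and 144, and 335 and 339 in the same order of groups. There the LXRα-vehicle arrays were the lowest of all, and LXRα-T0901317 exceeded them by 1.18 (SE 0.26). Which Masp1 transcripts these probe sets read was not examined, so no single direction can be given for the gene. The dimmest did not pass the filter, with intensities from 7.71 to 8.84.

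Masp2, the protease that cleaves C4 and C2, read 251 and 245 with GFP-vehicle, 152 and 228 with GFP-T0901317, 266 and 359 with LXRα-vehicle, and 144 and 184 with LXRα-T0901317. All 4 T0901317 arrays lay below all 4 vehicle arrays. Averaged over both transgenes, T0901317 differed from vehicle by -0.67 (SE 0.21, limma adjusted p = 0.144). Its other probe set did not share this, with 133 and 152, 197 and 174, 234 and 205, and 119 and 239 in the same order.

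The convertase genes C2 and Cfb are neighbours on chromosome 17 in RefSeq, and their intensities went apart. C2, the protease subunit of the classical and lectin C3 convertase, read 163 and 172 with GFP-vehicle, 293 and 339 with GFP-T0901317, 266 and 302 with LXRα-vehicle, and 319 and 258 with LXRα-T0901317. The 2 GFP-vehicle arrays were below the other 6, which overlapped. GFP-T0901317 exceeded GFP-vehicle by 0.91 (SE 0.23, limma adjusted p = 0.204), the smallest adjusted p of the 31 genes in that comparison, and LXRα-vehicle exceeded GFP-vehicle by 0.76.

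Cfb, whose product factor B is the protease subunit of the alternative convertase, read 2733 and 2103 with GFP-vehicle, 1226 and 1889 with GFP-T0901317, 1985 and 3110 with LXRα-vehicle, and 1831 and 860 with LXRα-T0901317. The 4 T0901317 arrays were the lowest 4 of 8, and the lowest was the array with the β-actin ratio of 36.3. T0901317 averaged over both transgenes differed from vehicle by -0.82 (SE 0.31, limma adjusted p = 0.19). With the log2 β-actin ratio as a covariate it was -0.33 (adjusted p = 0.623, range over the alternatives 0.0637 to 0.623). LXRα made a difference of 0.05 with vehicle, the least of the 31 genes, and it was -0.27 without the second LXRα-vehicle array.

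The genes of the membrane attack complex included C8b, which had the largest difference of the members in both comparisons with LXRα-vehicle. All 5 measured, C6, C8a, C8b, C8g and C9, were higher with LXRα-vehicle than with GFP-vehicle, with a median difference of 0.97, and all 5 were lower with LXRα-T0901317 than with LXRα-vehicle, with a median of -0.54. C8 consists of an α and a β chain encoded side by side on chromosome 4 by C8a and C8b, and a γ chain encoded elsewhere by C8g. The stretches of 250 bases before the RefSeq start sites of the neighbours C8a and C8b (GRCm38.p6, chr4:104876399-104876648, minus strand, and chr4:104766067-104766316, plus strand) are shown because C8b had these largest differences, 5′ to 3′ in the direction of transcription. They are wholly in lower case because they held none of the 5 motifs searched, which are given with the fibrinogen promoters.
C8a: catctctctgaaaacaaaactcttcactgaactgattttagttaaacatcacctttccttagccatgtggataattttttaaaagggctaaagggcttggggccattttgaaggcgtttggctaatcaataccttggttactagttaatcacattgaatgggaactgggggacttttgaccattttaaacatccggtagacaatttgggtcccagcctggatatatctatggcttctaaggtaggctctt
C8b: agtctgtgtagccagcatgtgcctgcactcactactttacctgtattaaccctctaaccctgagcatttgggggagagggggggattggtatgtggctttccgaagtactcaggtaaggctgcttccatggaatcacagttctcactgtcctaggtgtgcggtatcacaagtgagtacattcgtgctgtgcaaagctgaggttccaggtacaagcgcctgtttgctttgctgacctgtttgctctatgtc

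C8b read 209 and 210.3 with GFP-vehicle, 239.9 and 504 with GFP-T0901317, 741 and 1662 with LXRα-vehicle, and 269.9 and 219.6 with LXRα-T0901317. The LXRα-vehicle arrays were above the other 6, and the second was well above the first. LXRα-vehicle was 5.3-fold over GFP-vehicle, or 2.41 on the log2 scale (SE 0.48, limma adjusted p = 0.58), and LXRα-T0901317 differed from LXRα-vehicle by -2.19 (SE 0.48, adjusted p = 0.182). Without the second LXRα-vehicle array they were 1.82 and -1.61, and over all alternatives tried for the first of them the adjusted p ran from 0.192 to 1.

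C8a read 2485 and 1577 with GFP-vehicle, 2465 and 3095 with GFP-T0901317, 2591 and 5780 with LXRα-vehicle, and 1263 and 2200 with LXRα-T0901317. Its high value came from the second LXRα-vehicle array, while the first lay close to the highest GFP-vehicle array. LXRα-vehicle exceeded GFP-vehicle by 0.97 (SE 0.46), and by 0.39 without that second array. LXRα-T0901317 differed from LXRα-vehicle by -1.22 (SE 0.46, limma adjusted p = 0.349), and by -0.64 without that second array. C8g read 1846 and 3654, 2383 and 2865, 4636 and 2533, and 1919 and 3006 in the same order of groups. Its groups overlapped in every comparison, and its largest difference between groups was -0.51, between LXRα-T0901317 and LXRα-vehicle.

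C6, the component that follows C5b in pore assembly, read 312 and 182 with GFP-vehicle, 377 and 616 with GFP-T0901317, 352 and 732 with LXRα-vehicle, and 435 and 280.2 with LXRα-T0901317. Both GFP-vehicle arrays were below both GFP-T0901317 and both LXRα-vehicle arrays. The differences were 1.02 (SE 0.48) and 1.09 (SE 0.48), with wide spread between replicates. They were 0.63 without the second GFP-vehicle array and 0.56 without the second LXRα-vehicle array.

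C9, which polymerises into the pore, read 1684 and 1653 with GFP-vehicle, 2743 and 3769 with GFP-T0901317, 2470.0 and 3325 with LXRα-vehicle, and 1564 and 2923 with LXRα-T0901317. GFP-vehicle replicates differed little, and LXRα-T0901317 spanned from below them to within the LXRα-vehicle range. GFP-T0901317 exceeded GFP-vehicle by 0.95 (SE 0.35, limma adjusted p = 0.324), and by 0.40 with the log2 β-actin ratio as a covariate. LXRα-vehicle exceeded GFP-vehicle by 0.78.

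Of the regulators, Cfi, the protease that inactivates C3b and C4b, differed by 0.34 between LXRα and GFP with vehicle and by -0.39 between LXRα-T0901317 and LXRα-vehicle. C4bp, a cofactor of factor I that binds C4b, read 2643 and 2592 with GFP-vehicle, 2196 and 2626 with GFP-T0901317, 2634 and 3177 with LXRα-vehicle, and 1773 and 1545 with LXRα-T0901317. The LXRα-T0901317 arrays were below the other 6, which overlapped. They differed from LXRα-vehicle by -0.81 (SE 0.21, limma adjusted p = 0.223) and from GFP-T0901317 by -0.54 (SE 0.21).

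**Figure D3:**
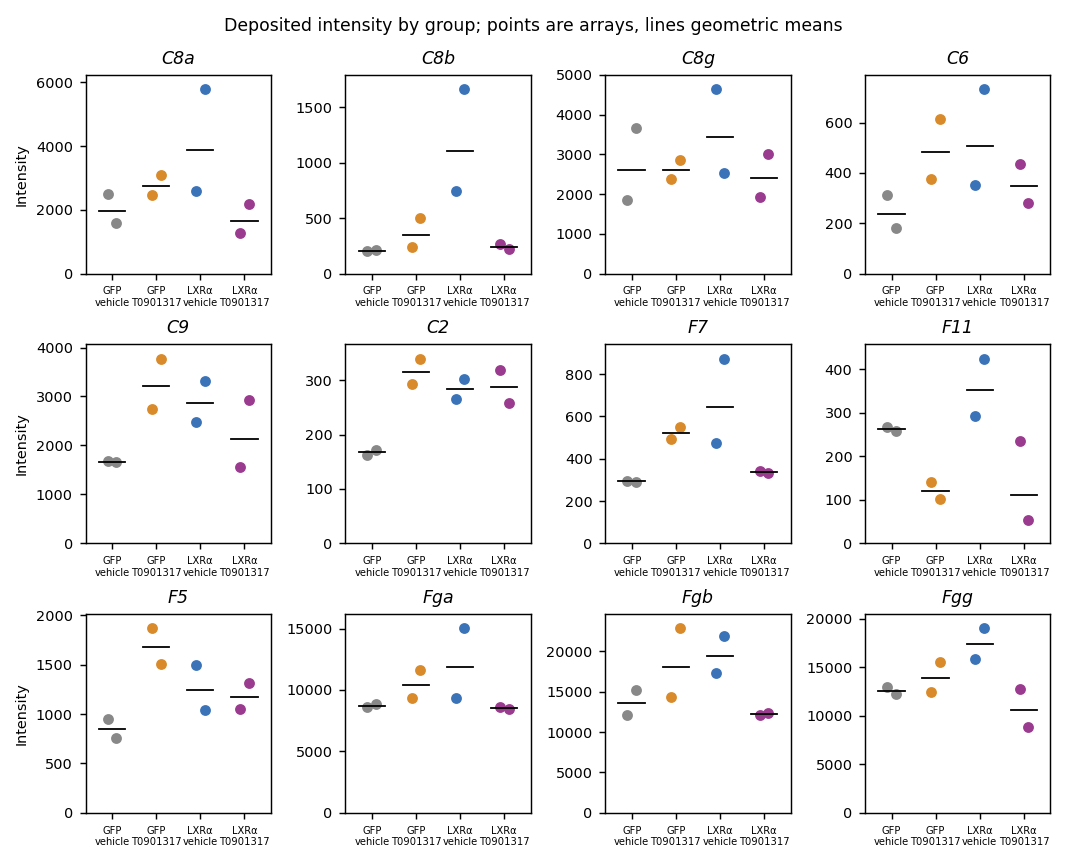
Deposited intensity (linear axes from 0) of 12 genes in the 4 groups; each point is 1 array and each line the geometric mean of 2. C8b stands highest on both LXRα-vehicle arrays and F7 on the second of them only. The GFP-vehicle arrays are lowest for C2 and F5, and F11 is low on 3 of the 4 T0901317 arrays.

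The contact factors were all higher with LXRα-vehicle than with GFP-vehicle, with limma adjusted p-values from 0.963 to 0.975. Each had separate arrays, where 30.5% of all genes did in that direction. F12, the zymogen that starts the contact pathway, differed by 0.41, Klkb1, plasma prekallikrein, by 0.73, and Kng1, the kininogen that carries prekallikrein and factor XI, by 0.52. Leaving out each array in turn, these went down to 0.20 for F12, 0.40 for Klkb1 and 0.26 for Kng1, without the second LXRα-vehicle, second GFP-vehicle and first GFP-vehicle array respectively. F11 and Klkb1 are neighbours on chromosome 8. Klkb1 differed from LXRα-vehicle by -0.75 with LXRα-T0901317 and Kng1 by -0.08, and without the first LXRα-T0901317 array by -0.47 and 0.37. The other Kng1 probe set differed by -0.40 between LXRα-T0901317 and LXRα-vehicle, with separate arrays, and by 0.60 between LXRα-vehicle and GFP-vehicle.

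F11, the factor XI gene, read 266 and 258 with GFP-vehicle, 142 and 101 with GFP-T0901317, 292 and 423 with LXRα-vehicle, and 234 and 53.5 with LXRα-T0901317. All T0901317 arrays were below all vehicle arrays. Averaged over both transgenes T0901317 differed by -1.39 (SE 0.45, limma adjusted p = 0.154), the largest averaged difference of the members. The 4 values 234, 142, 101 and 53.5 came from arrays with β-actin ratios of 2.75, 7.56, 11.04 and 36.3. With the log2 ratio as a covariate the averaged difference was -0.28 (adjusted p = 0.555), and that between GFP-T0901317 and GFP-vehicle was 0.05. The slope of that fit rests mainly on the LXRα-T0901317 pair, so it cannot tell ratio and treatment apart within GFP. Without the first LXRα-T0901317 array, the 1 treated array of low ratio, the averaged difference was -1.92 and passed the threshold (adjusted p = 0.0129), and so did that within LXRα, at -2.72 (adjusted p = 0.03). Adjusted p-values of the averaged difference ran from 0.0129 to 0.555 over the alternatives tried, and those of the difference within LXRα from 0.03 to 0.731.

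The vitamin K-dependent proteins, F2, F7, F9, F10, Proc and Pros1, are carboxylated in the liver before export. With vehicle, all 6 were higher with LXRα, with a median of 0.44. Arrays were separate for 5 of them, where they were for 30.5% of all genes in that direction. F2, which encodes prothrombin, differed by 0.27, Proc, the anticoagulant protease protein C, by 0.52, and F9, factor IX, by 0.25. Without the second LXRα-vehicle array they differed by 0.075, 0.25 and 0.099.

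F7, the protease that tissue factor activates at the start of clotting, read 294 and 292 with GFP-vehicle, 491 and 552 with GFP-T0901317, 475 and 872 with LXRα-vehicle, and 340.3 and 334 with LXRα-T0901317. GFP-vehicle was lowest, LXRα-T0901317 was next without overlap, and the remaining groups overlapped above them. LXRα-vehicle exceeded GFP-vehicle by 1.14 (SE 0.31, limma adjusted p = 0.767) and LXRα-T0901317 differed from LXRα-vehicle by -0.93 (SE 0.31). The first was 0.70 and the second -0.50 without the second LXRα-vehicle array.

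F10, which encodes factor X and lies beside F7 on chromosome 8, was read by 3 probe sets. The brightest read 1751 and 1809 with GFP-vehicle, 1789 and 1666 with GFP-T0901317, 2274 and 2909 with LXRα-vehicle, and 1758 and 940.4 with LXRα-T0901317. The LXRα-vehicle arrays were highest, and the lowest value came from the array with the β-actin ratio of 36.3. LXRα-T0901317 differed from LXRα-vehicle by -1.0002 (SE 0.32, limma adjusted p = 0.29). Averaged over both transgenes the difference was -0.52, and without the first LXRα-T0901317 array it was -0.75 and passed the threshold (adjusted p = 0.048, range 0.048 to 0.874 over the alternatives). That averaged difference was -0.064 (adjusted p = 0.874) with the log2 β-actin ratio as a covariate, and 0.41 by the second brightest probe set. Within LXRα these alternatives gave -0.57 and -0.29. The dimmest read 71.8 and 74.4, 225 and 245, 225 and 157, and 112 and 218 in the same order, which placed GFP-T0901317 above GFP-vehicle by 1.69 (SE 0.35), whereas the brightest differed there by -0.04. F10 therefore had no common direction for T0901317 in the GFP livers.

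Pros1, which encodes the protein C cofactor protein S, read 277 and 177 with GFP-vehicle, 377 and 475 with GFP-T0901317, 243 and 333 with LXRα-vehicle, and 359.7 and 280.2 with LXRα-T0901317. The GFP-T0901317 arrays were the highest of the 8, and the other groups overlapped. GFP-T0901317 exceeded GFP-vehicle by 0.94 (SE 0.32, limma adjusted p = 0.302), and by 0.61 without the second GFP-vehicle array. Within LXRα the difference was 0.16, and -0.070 without the first LXRα-vehicle array.

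The 3 fibrinogen chains are encoded by Fgg, Fga and Fgb, side by side on chromosome 3, and form 1 protein. Their promoters are shown because the chains are a textbook case of joint control. The sequences are the 250 bases before the RefSeq start sites (GRCm38.p6): Fga at chr3:83025903-83026152 on the plus strand, Fgb at chr3:83049864-83050113 on the minus strand and Fgg at chr3:83007474-83007723 on the plus strand. Each is written 5′ to 3′ in the direction of transcription, and capitals mark matches to 2 of the motifs searched, CTGGGAA and TTGCNNAA on either strand.
Fga: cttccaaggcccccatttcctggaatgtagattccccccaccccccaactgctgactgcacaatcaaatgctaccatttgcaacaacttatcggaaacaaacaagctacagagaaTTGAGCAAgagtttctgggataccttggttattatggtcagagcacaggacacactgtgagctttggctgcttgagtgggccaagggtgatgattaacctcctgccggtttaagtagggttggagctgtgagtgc
Fgb: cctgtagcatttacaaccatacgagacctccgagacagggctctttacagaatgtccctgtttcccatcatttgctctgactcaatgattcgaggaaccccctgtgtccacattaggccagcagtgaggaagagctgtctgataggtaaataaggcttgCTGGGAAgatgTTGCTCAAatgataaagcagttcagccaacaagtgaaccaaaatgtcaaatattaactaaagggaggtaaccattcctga
Fgg: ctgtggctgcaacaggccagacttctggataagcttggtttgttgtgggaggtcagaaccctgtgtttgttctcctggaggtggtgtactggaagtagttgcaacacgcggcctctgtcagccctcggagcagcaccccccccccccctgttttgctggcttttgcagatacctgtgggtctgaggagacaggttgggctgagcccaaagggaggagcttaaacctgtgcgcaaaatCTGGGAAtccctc

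CTGGGAA is a core of the interleukin-6 response element and TTGCNNAA a relaxed C/EBP site. Fgb held CTGGGAA from 91 to 85 bases and TTGCNNAA from 80 to 73 bases before the start, without overlap. Fgg held CTGGGAA from 13 to 7 bases before the start, and Fga held TTGCNNAA on the opposite strand from 135 to 128 bases before it. Windows of this kind were searched for 24 of the 31 genes, 25 in all, since C8g had more than 1. Promoters on chr18 were left out of the search and of the totals. CTGGGAA was in 4 of the 25, those of F9, Fgb, Fgg and Masp2, and in 9.1% of the 32851 RefSeq promoters searched. TTGCNNAA was in 7 of the 25, those of C9, F11, F9, Fga, Fgb, Hrg and Klkb1, and in 9.56% of all. An HNF1 core, GTTAAT followed after 1 base of any kind by ATT, was in the windows of C4bp and F13b and in 0.371% of all. An HNF4 core, CAAAGTCCA, and an LXR element, AGGTCA repeated after 4 bases of any kind, were in 0 of the 25 and in 0.384% and 0.0152% of all. A match describes the letters and not binding, and other windows were not searched.

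Fga read 8576 and 8859 with GFP-vehicle, 9347 and 11647 with GFP-T0901317, 9347 and 15014 with LXRα-vehicle, and 8626 and 8458 with LXRα-T0901317. Fgb read 12169 and 15231, 14349 and 22846, 17328 and 21858.5, and 12114 and 12407 in that order. Fgg read 12958 and 12225, 12432 and 15532, 15862 and 18989, and 12735 and 8844. In each chain both LXRα-vehicle arrays exceeded both GFP-vehicle and both LXRα-T0901317 arrays. With vehicle, LXRα and GFP differed by 0.44, 0.52 and 0.46 for Fga, Fgb and Fgg. LXRα-T0901317 differed from LXRα-vehicle by -0.47 (SE 0.26), -0.67 (SE 0.26, limma adjusted p = 0.358) and -0.71 (SE 0.23, adjusted p = 0.298). Fga depended on the second LXRα-vehicle array, without which these differences were 0.10 and -0.13, while Fgb kept 0.35 and -0.50. Fgg differed by 0.28 with vehicle under quantile normalization, and its treatment difference was -0.45 without the 3 arrays of high β-actin ratio.

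F5, the cofactor of factor Xa, read 952 and 757 with GFP-vehicle, 1866 and 1511 with GFP-T0901317, 1491 and 1040 with LXRα-vehicle, and 1050.2 and 1314 with LXRα-T0901317. The GFP-vehicle arrays were below the other 6. GFP-T0901317 exceeded GFP-vehicle by 0.98 (SE 0.28, limma adjusted p = 0.247), while its second probe set differed by 0.23. F13b, the carrier subunit of the factor that cross-links fibrin, differed by 0.20 between LXRα and GFP with vehicle, the least of the coagulation genes.

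Plg, Hrg and Vtn act on or bind the clot. Plg, which encodes plasminogen, read 3352 and 3986 with GFP-vehicle, 2609 and 3726 with GFP-T0901317, 4518 and 5504 with LXRα-vehicle, and 3155 and 2540 with LXRα-T0901317. The LXRα-vehicle arrays were above the other 6, and LXRα-T0901317 differed from them by -0.82 (SE 0.26, limma adjusted p = 0.286), the smallest adjusted p of the coagulation genes in that comparison. Vtn, the adhesive protein vitronectin, differed by 0.43 between LXRα and GFP with vehicle and by -0.79 between LXRα-T0901317 and LXRα-vehicle. It read 5360.1 and 4155 with GFP-vehicle and 4941 and 8175 with LXRα-vehicle, and without the second of the latter the differences were 0.066 and -0.42.

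Hrg, a plasma glycoprotein that binds plasminogen and heparin, read 3487 and 3257 with GFP-vehicle, 4404 and 6469 with GFP-T0901317, 4402 and 5967 with LXRα-vehicle, and 2410.0 and 3898 with LXRα-T0901317. Both GFP-T0901317 arrays were above, and both LXRα-T0901317 arrays below, the vehicle arrays of the same transgene. LXRα-T0901317 differed from GFP-T0901317 by -0.80 (SE 0.32), the largest such difference among the 31 genes, at a limma adjusted p of 1. It was -0.45 without the first LXRα-T0901317 array.

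The interaction tests whether T0901317 made a different difference with LXRα than with GFP. By the brightest probe set it was below 0 for all 31 genes, where 46.2% of all genes were above 0. The medians were -0.68 for complement and -0.76 for coagulation, against -0.03 over all genes. The dimmer Masp1 probe sets tested were above 0, at 0.33, 0.085 and 0.058. By limma 0 of the 31 were called, where 0.00631% of probe sets were, and 10 were below 0 at an unadjusted p under 0.05, where 2.61% of all genes were, with 0 above, where 2.37% were. C8b had an interaction of -2.92 (SE 0.67, adjusted p = 0.906), F7 one of -1.76 (SE 0.44, adjusted p = 0.957) and C8a one of -1.70 (SE 0.66), or -1.12 without the second LXRα-vehicle array. The LXRα-vehicle arrays enter it with a negative sign. The second LXRα-vehicle array was the highest of the 8 for 18 of the 31 genes, and the second GFP-T0901317 array for 8. The second LXRα-T0901317 array was the lowest for 10.

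Averaged over both transgenes, T0901317 went with lower means in 22 of the 31 genes. By the brightest probe set, only Masp2, Cfb and F11 had all treated arrays below all vehicle arrays, where 7.16% of all genes did. In 0 genes they lay above, where 8.84% did. The next brightest Masp1 probe set did have all treated arrays above all vehicle arrays, with an averaged difference of 1.02 (limma adjusted p = 0.069). The other Masp2 probe set differed by 0.0036, and its arrays overlapped. Limma called 0 of the 31, where 0.568% of probe sets were called. At an unadjusted p under 0.05, 5 genes were lower, Masp2, Cfb, C4bp, F11 and Plg, where 8.08% of all genes were, and C2 and Pros1 were higher, where 13.5% were.

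Other genes of the pathways were taken from lists chosen with earlier results known. Of these pathway lists limma called 0 genes in any comparison at an adjusted p under 0.05. Among 10 further complement genes listed for liver, 7 were higher with LXRα than with GFP under vehicle, and 9 were lower with LXRα-T0901317 than with LXRα-vehicle. The medians were 0.33 and -0.52. At an unadjusted p under 0.05, 2 were higher and 1 lower in the first and 3 lower in the second. Cfp was the lowest of the list in the first, at -1.47, and the highest in the second, at 0.83. Which cells made the RNA of Cfp, Fcna and the others listed was not tested. Over all genes 2.48% were higher and 3.13% lower in the first and 4.7% lower in the second. The median on the 2 LXRα-vehicle arrays was 0.050 and 0.54 relative to GFP-vehicle. Serping1, the C1 inhibitor, differed by 0.75 and -0.97, and Cpn2, a subunit of the carboxypeptidase that trims anaphylatoxins, by 0.93 and -1.02. Among 13 further coagulation genes listed for liver, 12 were higher in the first and 13 lower in the second comparison, with medians of 0.35 and -0.66. At that unadjusted p, 1 was higher in the first and 4 lower in the second, against the same 2.48% and 4.7%. F8, Serpina5 and A2m among them read only 9.26 to 19.8, so their signs carry little. Ahsg is also counted among the hepatocyte markers. Serpinf2, the plasmin inhibitor, differed by 0.94 and -1.24, and Serpind1, heparin cofactor II, by -0.80 (SE 0.16, limma adjusted p = 0.0777) with T0901317 averaged over both transgenes.

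Complement genes listed for other cells mostly went the other way with vehicle. Of 12 tested, 9 were lower with LXRα-vehicle than with GFP-vehicle, with a median of -0.67. It was uneven between the LXRα-vehicle arrays, with a median on the second of -1.28 relative to GFP-vehicle against -0.19 on the first. C1qa, a chain of C1q that macrophages make, read 1146 and 1184 with GFP-vehicle, 265 and 436 with GFP-T0901317, 823 and 172 with LXRα-vehicle, and 588 and 150.3 with LXRα-T0901317. The GFP-vehicle arrays were above the other 6. C1qc, another chain, differed by -1.57 between LXRα and GFP with vehicle (limma adjusted p = 0.647). All 13 macrophage markers, which include the C1q chains, were lower in that comparison, with a median of -1.57, which was -0.78 on the first and -2.19 on the second LXRα-vehicle array relative to GFP-vehicle. Between LXRα-T0901317 and LXRα-vehicle, 11 of the 13 were higher, with a median of 0.84.

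Markers of stellate cells and matrix also differed in both comparisons. With vehicle, 9 of 10 were lower with LXRα than with GFP, with a median of -0.85, and it was -0.81 and -0.82 on the 2 LXRα-vehicle arrays relative to GFP-vehicle. Between LXRα-T0901317 and LXRα-vehicle 9 of 10 were higher, with a median of 1.31. Limma called 0 of them, and 6 were higher at an unadjusted p under 0.05, where 8.58% of all genes were. Their summed intensity was 1916 to 3231 with GFP-vehicle, 2489 to 3520 with GFP-T0901317, 999 to 1243 with LXRα-vehicle and 3066 to 3636 with LXRα-T0901317. Endothelial markers had medians of -0.17 and 0.34 in these comparisons, with 9 of 11 lower and 10 of 11 higher. For T0901317 averaged over both transgenes, limma called 1 of the 11, Lyve1, at 2.05 (adjusted p = 0.0489), where 0.568% of probe sets were called. Hepatocyte markers had medians of 0.09 and -0.15. The part of these other cell types in the differences of the liver genes was not tested.

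A list of acute phase genes, which also held the interleukin-6 receptor subunits Il6ra and Il6st and the cytokines Il1b and Tnf, had a median of 0.47 in LXRα-vehicle against GFP-vehicle, with 17 of 20 higher, and of -0.68 in LXRα-T0901317 against LXRα-vehicle, with 19 of 20 lower. Between arrays of a group they were not even. Their median relative to GFP-vehicle was -0.01 on the first and 0.93 on the second LXRα-vehicle array, and 0.20 and 0.93 on the GFP-T0901317 arrays. The complement median was 0.49 and 0.54 on the LXRα-vehicle arrays, and 0.20 and 0.64 on the GFP-T0901317 arrays. The coagulation median was 0.29 and 0.61, and 0.09 and 0.28. The part of these genes in the differences of the 31 genes was not tested.

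**Figure D4:**
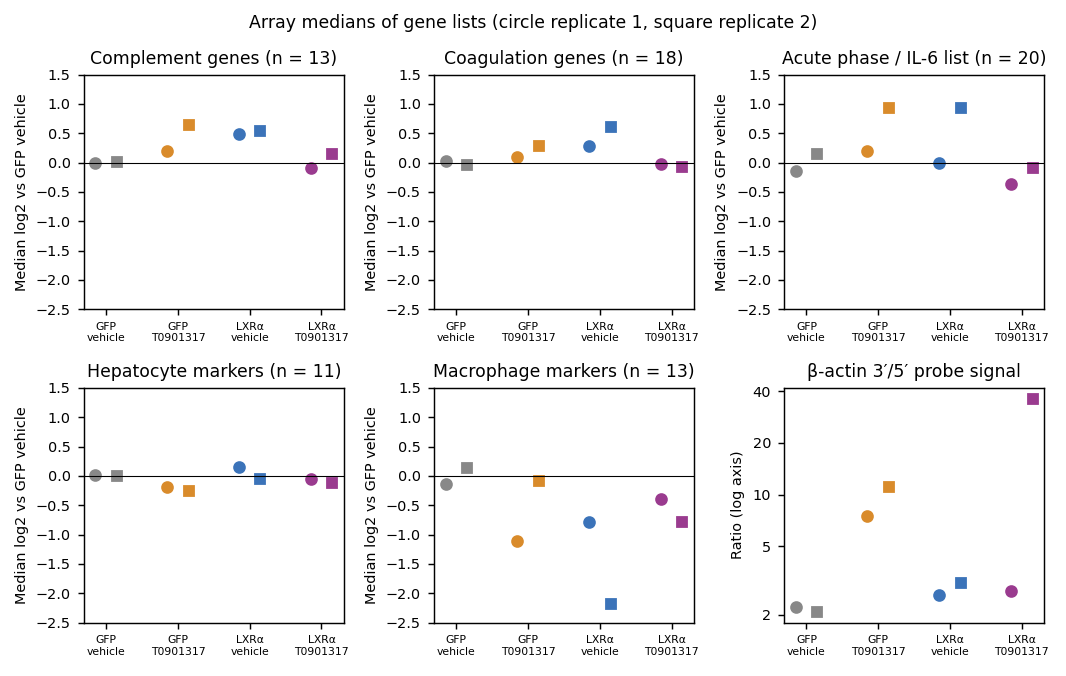
Median log2 intensity relative to the GFP-vehicle mean on each array for 5 gene lists, and the β-actin 3′ to 5′ ratio on a log axis; circles are replicate 1 and squares replicate 2. The second LXRα-vehicle array is high for coagulation genes and the acute phase list and lowest for macrophage markers, and the ratio is high on 3 of the 4 T0901317 arrays.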

How the data were processed

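RNA from 8 livers was measured on an Affymetrix mouse array, and the authors deposited 1 intensity per probe set and array, on a linear scale. How probes were summarised and arrays scaled is not given in the sources used. Of 22690 probe sets, 64 were controls. The platform annotation gave 1 symbol to 20380 of the 22626 others, several to 691 and none to 1555, and 20351 symbols were brought up to date by Entrez number from RefSeq. No sample column was left unused (0 columns).

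Intensities were floored at 7.50, the 20th percentile, and log2-transformed. Probe sets above the 30th percentile of mean log2 intensity were tested: 15838, for 9359 genes. Limma 3.58.1 in R 4.3.3 fitted 4 group means to all 8 arrays, with an intensity trend, 4 residual and 2.93 prior degrees of freedom. The code was tested on simulated data. Symbols listed as members were matched exactly.

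The brightest tested probe set with 1 symbol stood for its gene, and one ending in x_at only where no other existed. Values on every array were given for the 6 genes with the largest difference in each simple comparison or interaction, the 6 with the smallest p for the averaged treatment, the chains of fibrinogen and C8, and genes whose probe sets disagreed. C1q values were added after they were seen. Members and lists were chosen with earlier results of these data known. Alternatives covered normalization, floor, filter, model, probe set, β-actin ratio, replicate block and each array left out.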

Additional observations from a re-analysis of the deposited data

Results flagged for a closer look

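In 5 of the 31 genes, both T0901317 arrays were above both vehicle arrays with GFP and below both with LXRα. The interaction was tested with limma, and it did not pass the threshold for any of them. It was -1.22 for Masp1 (SE 0.37, adjusted p = 1), -2.92 for C8b (SE 0.67, adjusted p = 0.906), -1.76 for F7 (SE 0.44, adjusted p = 0.957), -0.73 for Fga (SE 0.36, adjusted p = 1) and -1.41 for Hrg (SE 0.45, adjusted p = 1). The same arrangement of arrays was found in 163 of 9359 genes, or 1.74%. The opposite arrangement was found in 0 of the 31 genes and in 150.0 of 9359, or 1.6%. For Masp1 it held for the brightest probe set, while the next brightest was higher with T0901317 in both transgenes, by 0.85 with GFP and 1.18 with LXRα.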

How the results depend on the processing

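Over 24 alternatives, 618 summary values stayed near the reported ones and 27 moved. A median counted as near if it shifted by less than 0.192 for complement or 0.15 for coagulation. Several alternatives changed only the estimate of the spread or the replicate block, and these could not move a difference or median. The 2 totals are therefore no measure of stability. With the log2 β-actin ratio as a covariate, the complement median was -0.014 for T0901317 with GFP and -0.74 for T0901317 with LXRα, and the latter was -0.72 without the 3 arrays of high ratio. Leaving out each array in turn gave these ranges. For LXRα against GFP with vehicle the complement median ran from 0.34 to 0.64 and the coagulation median from 0.29 to 0.61. For T0901317 with GFP they ran from -0.067 to 0.64 and from 0.092 to 0.28. For T0901317 with LXRα they ran from -0.72 to -0.43 and from -0.82 to -0.38, and the genes called from 0 to 1, the 1 being F11 without the first LXRα-T0901317 array. Between the treated groups the complement median ran from -0.59 to -0.091, and genes with separate lower arrays from 10 to 22. For T0901317 averaged over the transgenes, genes called ran from 0 to 2, F10 and F11 without the same array, and genes with separate lower arrays from 3 to 5. The interaction medians ran from -1.01 to -0.58 for complement and from -0.90 to -0.57 for coagulation. Separation is easier to meet with fewer arrays, so counts of genes with separate arrays can rise for that reason alone. The cause of the other moves was not tested.

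Leaving out arrays, 29 to 31 genes were higher with LXRα under vehicle, 19 to 23 higher with T0901317 in GFP, 25 to 29 lower with T0901317 in LXRα, 23 to 29 lower between the treated groups, 19 to 23 lower for the averaged treatment and 29 to 31 below 0 for the interaction. Over all alternatives, 122 values of single genes had another sign than the reported one. Quantile normalization gave 31 higher with LXRα under vehicle, 30 lower with T0901317 in LXRα and 31 below 0. Replicate numbers only name the samples, since the labels tie no number to a shared source. With the replicate block, 0 genes were called in any comparison. Each group held 1 array of each number, so the block could not change any difference or median, and unchanged medians are no check. Deviations of same-numbered arrays correlated at -0.14 to 0.25 between groups, and a crossed pairing, added after the data were seen, also called 0. Comparing 2 groups alone gave no averaged or interaction value, and leaving out the 3 arrays of high ratio gave 2 comparisons only. Intensity near background limits F8, Serpina5, A2m, the dimmest Masp1 probe set and Habp2 on 1 array, and 2 arrays per group limit every p-value.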

Other observations

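The machinery that finishes and exports clotting factors did not share one direction. Of 8 genes tested, 6 were higher with LXRα than with GFP under vehicle, where 59.9% of all genes were, and their median was 0.25. Furin, the protease that cleaves proproteins of several factors, read 67.6 and 73.7 with GFP-vehicle, 158 and 152 with GFP-T0901317, 80.7 and 117 with LXRα-vehicle, and 135 and 206 with LXRα-T0901317. All T0901317 arrays were above all vehicle arrays, and the averaged difference was 0.96 at a limma adjusted p of 0.0806. Ggcx, the vitamin K-dependent carboxylase, read 41.2 and 40.7, 35.01 and 22.03, 41.4 and 61.7, and 36.4 and 10.7 in the same order of groups. Its lowest value, like that of Habp2, a plasma protease that read 7.50 there, came from the array with the β-actin ratio of 36.3, and the part of the ratio was not tested.

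Clotting genes of other cells included Anxa2, a surface receptor for plasminogen and its activator. It differed by -2.65 between LXRα and GFP with vehicle (limma adjusted p = 0.58) and by 1.99 between LXRα-T0901317 and LXRα-vehicle. Among 17 liver transcription factors, 13 were higher with LXRα under vehicle, where 59.9% of all genes were. Their median was 0.44, limma called 0, and 3 were higher at an unadjusted p under 0.05, where 2.48% of all genes were. Foxa3 differed by 1.01 and Hnf4a, which drives many clotting factor genes, by 0.68. Between LXRα-T0901317 and LXRα-vehicle the list had a median of -0.07, with 7 higher and 10 lower. Hnf4a read 819 and 840 with GFP-vehicle, 1051 and 1473 with GFP-T0901317, 1115 and 1588 with LXRα-vehicle, and 1217 and 1223 with LXRα-T0901317. The part of these factors in the differences of the complement and coagulation genes was not tested.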
